A study of Mus with 6 samples.

Results

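Cytokines and regulators of the interleukin-1 (IL1) and interleukin-6 (IL6) axes were examined in mouse pancreatic tumors as a list of 10 genes named by Ensembl ID: Il1a, Il1b, Il1rn, Il33, Tnf, Il6, Lif, Il11, Csf2 and Socs3. Of the 10, 9 were matched among the 15646 genes of the count table, and all 9 also passed the filter on low counts and were tested. Csf2, which encodes the growth factor GM-CSF, was matched to no row and was not analysed here. The lowest sum of counts for any gene in the count table was 11, so Csf2 may be missing because of few counts, which could not be checked. The list was set by gene identity, but it was proposed with earlier results of these data known. The tumors were grown in the pancreas from KPC1199, a mouse pancreatic ductal adenocarcinoma cell line that all hosts received. Hosts were either leptin-deficient, genetically obese ob/ob animals (3 libraries, numbered 1, 3 and 4) or lean wild-type (WT) mice (3 libraries, numbered 1, 2 and 3), and the comparison asks how host obesity is reflected in tumor expression. Because obesity here came from loss of leptin, itself a cytokine-like hormone, weight and leptin loss cannot be told apart. The labels give no age, sex, strain background, tumor size or time of collection, and do not say that each library was a separate mouse, so p-values measure the spread between these libraries, which may in part be technical.

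As background, IL1α and IL1β, encoded by Il1a and Il1b, bind the same receptor and activate NF-κB, and the antagonist encoded by Il1rn occupies that receptor without signaling. IL6, LIF and IL11 signal through receptor complexes that share gp130 and activate STAT3. SOCS3 is induced by STAT3 and blocks gp130 signaling in turn, and it is also an inhibitor of the leptin receptor. In pancreatic cancer, IL1 from tumor cells and macrophages is known to turn fibroblasts to an inflammatory state in which they secrete IL6 and LIF.

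In tumors of obese hosts the IL1 antagonist rose and the feedback inhibitor of gp130 signaling fell, while no cytokine gene passed the test in either direction. Il1rn was 2.07-fold higher (95% interval 1.39 to 3.09) and Socs3 was 2.48-fold lower. The test called 1 of the 9 genes higher, 1 lower and 7 neither (edgeR quasi-likelihood test, adjusted p under 0.05 over 14348 genes). Over all genes tested, 20.8% were called, 10.3% as higher and 10.6% as lower in obese hosts, so 2 of 9 is a share near that background. The median log2 fold change of the 9 genes was 0.08, against 0.01 over all genes tested. With total counts in place of TMM scaling factors, 60.6% of all called genes were higher in obese hosts, against 49.3% with TMM.

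**Figure D1:**
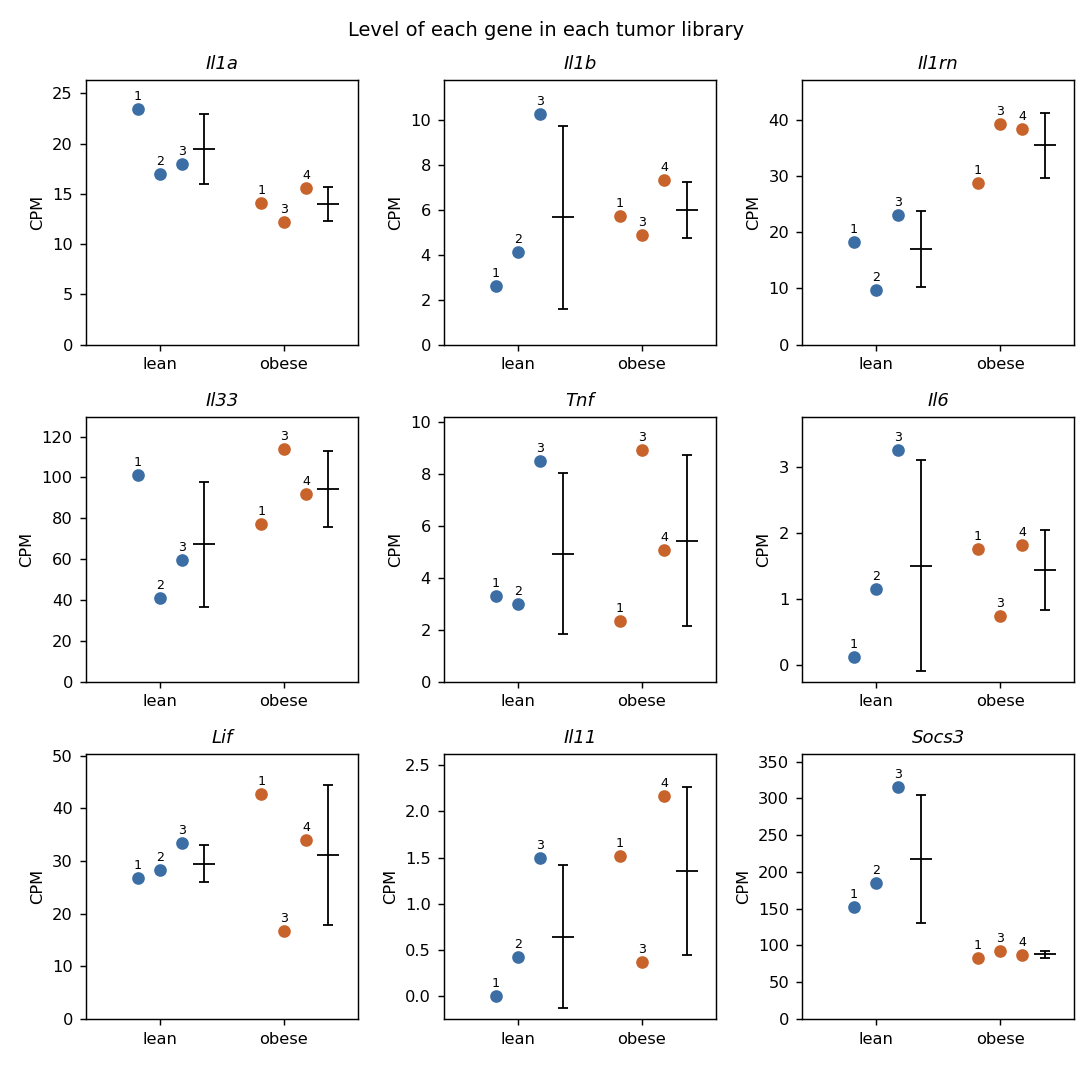
Counts scaled to library size (CPM, vertical axes, each on its own linear scale) of the 9 genes in the 3 lean (blue) and 3 obese (orange) libraries, with library numbers above the points and the mean ± SD of each group in black beside them. The groups separate for Il1rn, Il1a and Socs3 and overlap for the other 6 genes; lean 3 is the highest lean library in 7 of the 9 panels.

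Values are counts scaled to a library size of 1000000 after TMM normalization (CPM). They compare libraries for 1 gene and were not divided by transcript length, so they give no order of level between genes. Library totals lay between 7122533 and 8521244 counts, and a count of 0 allows a level of 3 counts, which is 0.352 to 0.426 CPM depending on the library. In bulk tissue, fewer cells that express a gene and less RNA of it per cell cannot be told apart. Markers of macrophages, neutrophils, fibroblasts and other sources of these cytokines were not analysed here, because the files pair no symbols with IDs other than those of the 10 listed genes. The tumor label was likewise not checked against markers.

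The IL1 ligands came first among the roles. Il1a (ENSMUSG00000027399.1, mouse build GRCm38, chromosome 2, 129299609 to 129310186) encodes IL1α, which is released by damaged epithelial cells as well as by leukocytes. It stood at 23.4, 17.0 and 18 CPM in lean 1, 2 and 3 and at 14.1, 12.2 and 15.6 CPM in obese 1, 3 and 4. Every obese library was thus below every lean library, but the margin between lean 2 and obese 4 was narrow. The log2 fold change of -0.48 (SE 0.19, 95% interval -0.90 to -0.07) did not pass the test (edgeR adjusted p = 0.0911, unadjusted p = 0.0264). Groups without overlap, in either direction, occurred in 40.3% of all genes tested, and in this direction in 20.0%; of the 9 genes, 1 (Il1rn) did not overlap upward and 2 (Il1a and Socs3) downward.

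Il1b (ENSMUSG00000027398.13, chromosome 2, 129364569 to 129371164) lies on the same chromosome as Il1a and encodes IL1β, which is made mainly by myeloid cells and is activated by cleavage in the inflammasome. It stood at 2.61, 4.12 and 10.3 CPM in lean 1, 2 and 3 and at 5.75, 4.89 and 7.36 CPM in obese 1, 3 and 4. The obese libraries lay inside the lean range, which spanned 3.93-fold from lean 1 to lean 3. The log2 fold change of 0.08 (SE 0.44, edgeR adjusted p = 0.913) had a 95% interval of -0.88 to 1.05, or ratios of 0.542 to 2.07. Without lean 3 the fitted value was 0.84 and without lean 1 it was -0.27, neither of which passed the test.

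The antagonist Il1rn (ENSMUSG00000026981.15, chromosome 2, 24336860 to 24351491) encodes IL1RA. Its level was 18.3, 9.66 and 23.0 CPM in lean 1, 2 and 3 and 28.7, 39.2 and 38.3 CPM in obese 1, 3 and 4. All 3 obese libraries were above all 3 lean ones, a pattern found for 20.3% of all genes tested, and lean 2 was the lowest of the 6. The lean mean was 17.0 ± 6.78 CPM and the obese mean 35.4 ± 5.78 CPM (SD, n = 3 each), giving a log2 fold change of 1.05 (SE 0.26, edgeR adjusted p = 0.0197). The change held its direction in all 15 alternative fits, between 0.71 and 1.33, and its call in 14. Without obese 4 it was 0.99 with an edgeR adjusted p = 0.0529. Its size depended more on lean 2, without which it was 0.77 (edgeR adjusted p = 0.0474). The lowest value, 0.71, came from the fit with a replicate block, which in effect leaves out lean 2 and obese 4.

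Since Il1rn competes with both ligands, its counts were divided by the summed counts of Il1a and Il1b within each library, a ratio that needs no scaling factor. The ratio was 0.703, 0.456 and 0.814 in lean 1, 2 and 3 and 1.45, 2.29 and 1.67 in obese 1, 3 and 4. The 2 groups did not overlap, and the geometric mean was 2.77-fold higher in obese hosts. Il1a made up most of the summed counts in each library, from 144 of 226 in lean 3 to 197 of 219 in lean 1. The ratio is thus mostly that of Il1rn to Il1a. The exact two-sided permutation test gave p = 0.1, the smallest that 3 against 3 libraries allow, and an adjusted p of 0.133 over the 4 ratios computed. The ratio of counts depends on the transcripts' lengths and says nothing of how many antagonist molecules there were per ligand.

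The ratio was also computed to each ligand singly. Against Il1a alone the Il1rn ratio was 0.567 to 1.28 in lean and 2.04 to 3.20 in obese libraries, with no overlap (3.05-fold, exact permutation p = 0.1, adjusted p = 0.133). Against Il1b alone it was 7, 2.34 and 2.24 in lean 1, 2 and 3 and 5, 8 and 5.20 in obese 1, 3 and 4. Here the groups overlapped through lean 1, where Il1b had 22 counts, and the 1.78-fold difference gave an exact permutation p = 0.3. The 2 ratios to single ligands were computed after the values had been seen. The groups already separated upward for Il1rn and downward for Il1a. The ratio to Il1a therefore had to separate and to give the smallest possible p, and it is no separate result.

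**Figure D2:**
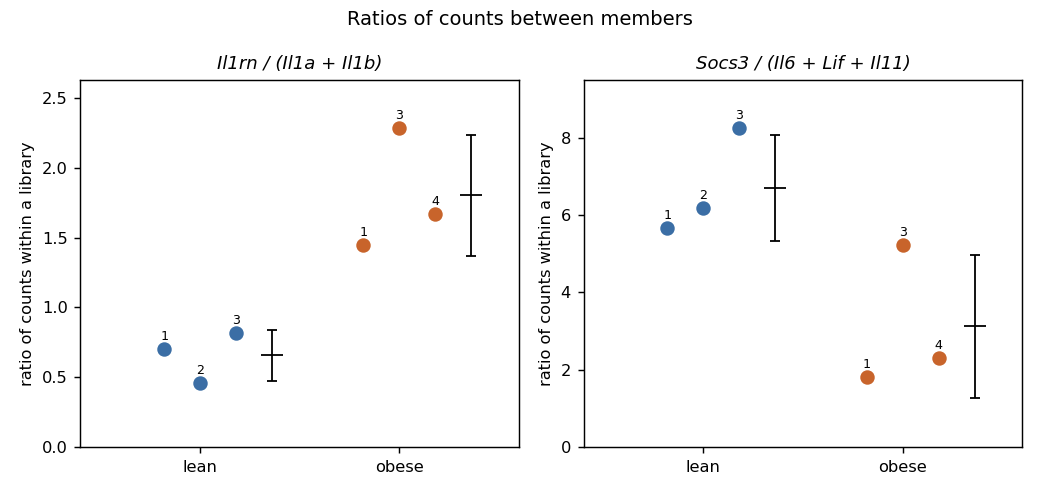
Ratios of counts within each library, on linear axes from 0, of Il1rn to Il1a plus Il1b (left) and of Socs3 to Il6 plus Lif plus Il11 (right), for lean (blue) and obese (orange) libraries with their numbers and the mean ± SD of each group in black. The left ratio is at most 0.814 in lean and at least 1.45 in obese libraries; the right ratio is at least 5.66 in lean and at most 5.24 in obese libraries.

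Il33 (ENSMUSG00000024810.16, chromosome 19, 29925113 to 29960718) encodes an IL1 family alarmin, stored in the nucleus of epithelial, endothelial and stromal cells, that signals through the receptor ST2 on mast cells, regulatory T cells and innate lymphoid cells. It stood at 101, 40.9 and 59.8 CPM in lean 1, 2 and 3 and at 77.1, 114 and 92.1 CPM in obese 1, 3 and 4. Lean 1 lay among the obese libraries, and the other lean libraries lay below all of them. The log2 fold change was 0.48 (SE 0.27, 95% interval -0.10 to 1.07) and did not pass (edgeR adjusted p = 0.215). Without lean 1 it was 0.90 and passed (edgeR adjusted p = 0.0174), and without lean 2 it was 0.23.

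Tnf (ENSMUSG00000024401.14, chromosome 17, 35199367 to 35202007) encodes tumor necrosis factor, an NF-κB activator made by macrophages and T cells. It had 20 to 73 counts per library. It stood at 3.32, 2.98 and 8.51 CPM in lean 1, 2 and 3 and at 2.34, 8.93 and 5.07 CPM in obese 1, 3 and 4. The ranges of the groups were almost the same, with 1 high library in each, lean 3 and obese 3. The log2 fold change was 0.13 (SE 0.51, 95% interval -0.98 to 1.25, edgeR adjusted p = 0.877).

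Of the gp130 ligands, Lif (ENSMUSG00000034394.14, chromosome 11, 4257568 to 4272514) was the one counted well enough to be measured with some precision. LIF is secreted by activated stellate cells and fibroblasts and by tumor cells. Lif stood at 26.8, 28.3 and 33.4 CPM in lean 1, 2 and 3 and at 42.7, 16.6 and 33.9 CPM in obese 1, 3 and 4. The lean libraries were close together and the obese ones lay on both sides of them, with obese 1 the highest and obese 3 the lowest of the 6. The coefficient of variation was 11.7% in lean and 42.6% in obese libraries, and the log2 fold change was 0.08 (SE 0.27, 95% interval -0.53 to 0.68, edgeR adjusted p = 0.869).

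Il6 (ENSMUSG00000025746.11, chromosome 5, 30013114 to 30019975) encodes the cytokine that gives the axis its name. It had only 1, 8 and 26 counts in lean 1, 2 and 3 and 15, 6 and 15 in obese 1, 3 and 4, or 0.119, 1.14 and 3.25 CPM against 1.76, 0.734 and 1.81 CPM. The lean libraries therefore spanned 27.4-fold and held both the lowest and the highest value, with the obese libraries between them. The exact 95% Poisson interval, for counting error only, was 0.00301 to 0.661 CPM in lean 1 and 2.13 to 4.77 CPM in lean 3. The log2 fold change of -0.06 (SE 0.77, edgeR adjusted p = 0.965) had a 95% interval of -1.76 to 1.64, or ratios of 0.296 to 3.11. Differences inside that range were not excluded at this depth and spread.

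Il11 (ENSMUSG00000004371.15, chromosome 7, 4772373 to 4782907), whose product IL11 acts on fibroblasts and epithelium and is itself induced by TGFβ, had the fewest counts. There were 0, 3 and 12 counts in lean 1, 2 and 3 and 13, 3 and 18 in obese 1, 3 and 4. The value of 0 in lean 1 allows up to 0.356 CPM, and the other lean libraries stood at 0.426 and 1.5 CPM against 1.52, 0.367 and 2.17 CPM in obese 1, 3 and 4. Lean 3 lay just under obese 1, and obese 3 lay under lean 2, so the groups overlapped. The fitted log2 fold change of 1.06 was as large as that of Il1rn but had an SE of 0.90 and did not pass (95% interval -0.91 to 3.04, edgeR adjusted p = 0.422). It ranged from 0.46 without lean 1 to 2.69 without lean 3.

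Within each group, Il6 and Il11 ordered the libraries in the same way by CPM, although Il6 had 15 counts in both obese 1 and obese 4. In lean hosts both were lowest in lean 1 and highest in lean 3, and in obese hosts both were lowest in obese 3 and highest in obese 4. Il1b had the same order in each group, and Lif and Socs3 shared the lean order but not the obese one. With 3 libraries per group these orders are a description only, and those of Il6, Il11 and Il1b rest on few counts.

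**Figure D3:**
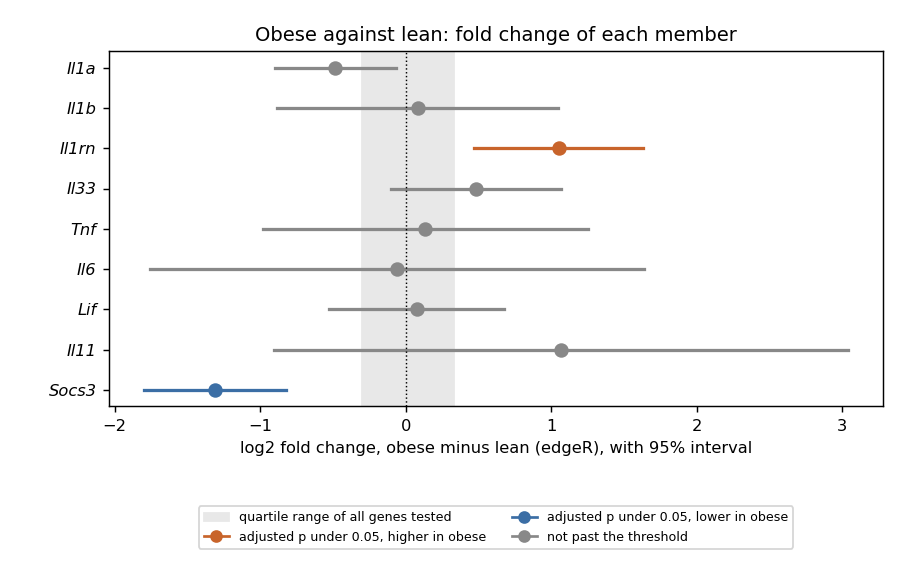
Fitted log2 fold change, obese minus lean, of the 9 genes (points) with 95% intervals (lines), and the range between the quartiles of all 14348 genes tested (-0.30 to 0.34) as a grey band. Il1rn (orange, 1.05) and Socs3 (blue, -1.31) passed the adjusted threshold; the intervals of Il6 and Il11 are the widest of the 9.

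Socs3 (ENSMUSG00000053113.3, chromosome 11, 117966079 to 117970336) showed the clearest difference of the list. Its level was 152, 185 and 316 CPM in lean 1, 2 and 3 and 83.0, 93.0 and 87.4 CPM in obese 1, 3 and 4. Each obese library was below each lean library, and the obese libraries lay close together while lean 3 stood well above the other lean ones. The mean was 218 ± 86.4 CPM in lean and 87.8 ± 5 CPM in obese hosts (SD, n = 3 each), giving a log2 fold change of -1.31 (SE 0.22, 95% interval -1.80 to -0.82, edgeR adjusted p = 0.00422). The coefficient of variation was 39.7% in lean and 5.69% in obese hosts; whether the spread itself differed was not tested.

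The call of Socs3 did not rest on its highest lean library, although the size of its fall did in part (-1.31 with all 6 libraries). Without lean 3 the log2 fold change was -0.94 and still passed (edgeR adjusted p = 0.00784; 0.00325 to 0.0191 over the 6 fits that leave out 1 library), and over all 15 alternative fits it lay between -1.51 and -0.94 and passed in each. Between 708 and 2522 counts per library stood behind these values.

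Because Socs3 is a target of the gp130 ligands, its counts were also set against the sum of Il6, Lif and Il11 counts in the same library, a ratio chosen after the values had been seen. It was 5.66, 6.20 and 8.27 in lean 1, 2 and 3 and 1.81, 5.24 and 2.31 in obese 1, 3 and 4. The groups did not overlap, although obese 3 came close to lean 1 (2.37-fold lower in obese hosts by geometric means, exact permutation p = 0.1, adjusted p = 0.133 over the 4 ratios). Lif made up 87.5% to 99.6% of the summed counts, so the ratio is in effect that of Socs3 to Lif.

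The 9 genes varied between libraries more than the median gene, Il1a only slightly so. The biological coefficient of variation, edgeR's estimate of the spread between libraries of a group beyond counting error, was 59.9% for Il11, 57.5% for Il6, 41.6% for Tnf and 35.8% for Il1b. It was 16.1% to 23.8% for Il1a, Socs3, Il1rn, Il33 and Lif. The median over all genes tested was 16.0%, and all 9 genes were also above the median of the fifth of genes with the most similar mean CPM. For the fifth that holds Il6 and Il11 that median was 29.7%, and 11.4% of its genes were called. For the fifth that holds Il1b and Tnf it was 20.3%, and 17.8% were called.

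Within the lean group, lean 3 had the highest value of Il1b, Il1rn, Tnf, Il6, Lif, Il11 and Socs3, 7 of the 9 genes, whereas it was the highest lean library for 32.7% of all genes tested. Lean 1 was highest for Il1a and Il33. Among obese libraries, obese 3 was highest for Il1rn, Il33, Tnf and Socs3 and lowest for Il1a, Il1b, Il6, Lif and Il11, so it was at an extreme for each of the 9. It was at the top for 38.1% and at the bottom for 36% of all genes tested.

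**Figure D4:**
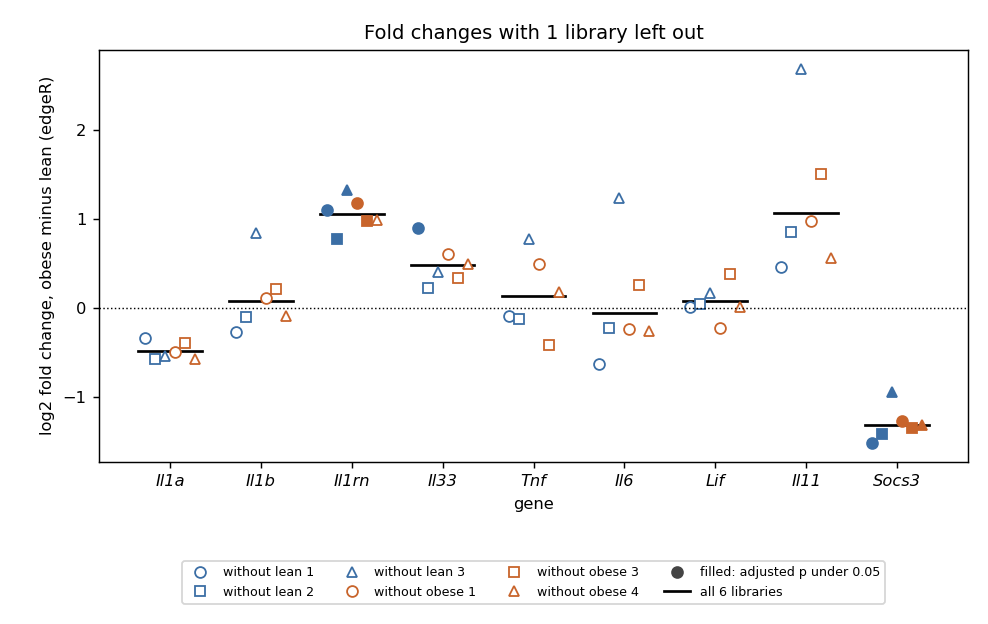
Log2 fold change, obese minus lean, of each gene with 1 library left out (blue symbols for lean, orange for obese libraries; filled where the edgeR adjusted p was under 0.05) and with all 6 libraries (black lines). Socs3 stays between -1.51 and -0.94 and Il1rn between 0.77 and 1.33, whereas Il1b, Tnf, Il6 and Lif have values on both sides of 0.

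Likeness of pattern was measured as the root mean square difference from a gene in log2 CPM, centred on each gene's mean over the 6 libraries. By the rule set for this, it was computed for the IL1 member and the IL6-axis member with the highest mean count, Il33 and Socs3. The 2 genes nearest to Socs3 were ENSMUSG00000044927.6 (difference 0.101) and ENSMUSG00000018470.8 (0.121). They fell from 7.62 to 2.89 CPM and from 4.11 to 1.56 CPM (edgeR adjusted p = 0.0153 and 0.0335). Both were picked for their likeness to Socs3 over these same 6 libraries, so their fall follows from the choice and is no separate result. The 2 nearest to Il33 were ENSMUSG00000027335.9 (0.0919) and ENSMUSG00000105848.1 (0.108). These were scarce genes at 0.988 and 1.03 CPM in lean and 1.69 and 1.65 CPM in obese hosts, and they did not pass the test. They too were picked for their likeness, and the distance takes no account of counting error at such levels. Their nearness therefore shows no link to Il33. Within the list, Il1rn was nearest to Il33 (0.427) and Il1a was nearest to Socs3 (0.578). Among all genes, these ranked 2386 and 2845 in nearness, so neither is a close likeness.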

How the data were processed

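The authors deposited raw counts per gene for 6 libraries of total RNA depleted of ribosomal RNA. CASAVA, STAR and Subread, with build GRCm38, are named per the submitters' processing notes, with neither versions nor strandedness. Titles starting OB were taken as obese and those starting ND as lean. Members and lists were chosen with earlier results of these data known. Symbols of the members came with their IDs; coordinates came from RefSeq (GRCm38.p6) by symbol, where Il1a, Il1b, Il6, Il11 and Il33 each overlap 1 other gene, whose reads cannot be told apart without strand. That table holds 0 Ensembl IDs, so the planned lists of receptors, signal transducers, targets and cell type markers were not run.

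Counts were filtered by edgeR's default filter (minimum count 10, minimum total 15; 14348 of 15646 genes kept), scaled by TMM and tested with edgeR 4.0.16 (R 4.3.3), quasi-likelihood, two-sided, Benjamini-Hochberg adjusted. The SE is the fold change's size over the square root of F; 95% intervals use the fit's degrees of freedom. Ratios were compared by exact permutation tests. Intervals for counts and floors (3 counts) cover counting error only. Named were all members and, by a distance rule, 2 other genes for each of 2 members. Alternatives were other scalings and filters, DESeq2 1.42.0, a robust fit, limma-voom of limma 3.58.1, a replicate block and leaving out each library. Log2 CPM for distances used a prior count of 2.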

Additional observations from a re-analysis of the deposited data

How the results depend on the processing

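Socs3 kept its direction and call in all 15 alternatives, and Il1rn kept its direction in 15 and its call in 14. Il1a and Il11 kept their direction and passed in 0 of 15, and Il33 passed in 1 (0.90 without lean 1). The signs of the other 4 genes, none of which passed, depended on the setting. Il1b was -0.0602 with the replicate block, -0.09 without obese 4, -0.27 without lean 1 and -0.10 without lean 2, and up to 0.84 without lean 3. Il6 was 0.00335 with total counts only, 0.69 with limma-voom, 0.26 without obese 3 and 1.24 without lean 3, and down to -0.62 without lean 1. Lif was -0.0184 with limma-voom, -0.14 with the replicate block and -0.22 without obese 1, and up to 0.38 without obese 3. Tnf was -0.17 with the replicate block, -0.41 without obese 3, -0.09 without lean 1 and -0.12 without lean 2, and up to 0.78 without lean 3. The cause was not tested. Leaving out 1 library gave 1 (without obese 4) to 3 (without lean 1) called members and 1179 (without lean 2) to 3066 (without obese 3) called genes in all, with 1461 without obese 1, 1541 without lean 3 and 1956 without obese 4; other settings gave 2903 to 3011 genes apart from the block. The log2 difference of the Il1rn ratio was 1.23 to 1.64 with 1 library left out, against 1.47 with all. Replicate numbers 1 and 3 are shared between the groups. Deviations of same-numbered libraries correlated at 0.090 and 0.0743, above all lean and obese pairs with unlike numbers (-0.132 to 0.0684). These small values do not settle whether the numbers pair the samples. The labels name no pairing, and the main fit used none. With the replicate block 2087 genes and 2 members were called. Number 2 is only in lean and 4 only in obese hosts, so that fit in effect compares lean 1 and 3 with obese 1 and 3. Il6 and Il11 had at most 26 and 18 counts in a library. Their biological coefficients of variation, 57.5% and 59.9%, were the highest of the 9 genes. How far depth and spread each widened their intervals was not tested.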
